A study of Mus musculus with 12 samples.

Results

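The genes described here are 10 genes of insulin signalling and of its FOXO branch, read across lineage-negative bone marrow cells of 4 mouse genotypes. They were taken by symbol (GRCm38 names) from the 31060 genes of the deposited count table, and all 10 were found and passed the filter on low counts that kept 15630 genes. By role they are the receptors Insr and Igf1r, the adaptors Irs1 and Irs2, the kinase Akt2, the PI3-kinase inhibitor Pik3ip1, the transcription factors Foxo1 and Foxo3, the FOXO target Sesn1, and Txnip, a gene that responds to glucose and to FOXO factors. The question put to them is whether marrow progenitors of mice with little insulin and high glucose carry a trace of it in these transcripts.

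All mice are of the C57BL/6 strain. The groups are WT (n = 3), Tet2+/- with 1 disrupted copy of Tet2 (called Tet2het, n = 3), Ins2Akita/+ with 1 Akita copy of the insulin gene Ins2 (called Akita, n = 2), and Tet2+/-;Ins2Akita/+ with both (called the double mutant, n = 3). The Tet2 enzyme starts the removal of methyl groups from cytosine in DNA. The Akita allele is dominant, makes a misfolded proinsulin that damages pancreatic beta cells, and so leaves the animal short of insulin and hyperglycaemic. Its product is made in the pancreas, so an effect on the marrow would come by way of the circulation. Insulin and glucose are the part of that asked about here. The lineage-negative fraction is marrow depleted of cells that display mature lineage antigens. The labels give no age, glucose or insulin value for any mouse, and none states whether samples of the same genotype are different mice. The p-values therefore rest on a spread between samples that may be technical.

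Insulin and IGF1 bind the receptor tyrosine kinases encoded by Insr and Igf1r, which phosphorylate the adaptors IRS1 and IRS2. The adaptors recruit PI3-kinase, whose lipid product brings AKT kinases to the membrane, and AKT phosphorylates FOXO1 and FOXO3 so that they leave the nucleus. When insulin is low, FOXO factors stay in the nucleus and raise genes such as Irs2, Insr, Sesn1 and Pik3ip1, so that the pathway is reset from its start. Txnip encodes a protein that restrains glucose uptake, and its transcription is driven by high glucose through the factors MondoA and ChREBP. In marrow, FOXO proteins are known for keeping stem cells quiescent, and Foxo1 for B cell development.

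The promoter sequences of 3 of the genes are shown because they carry, as plain letters, the elements through which low insulin or high glucose is known to act. They are RefSeq windows of build GRCm38.p6, from 250 bases before to 50 after an annotated start, 5′ to 3′ on the gene's strand. Capitals mark matches to 3 motifs, searched on both strands: the forkhead core TGTTTAC (read from the other strand as GTAAACA), the insulin response element core CAAAACA (read from the other strand as TGTTTTG), and the carbohydrate response E boxes CACGTG, which is its own reverse complement, and CACGAG (read from the other strand as CTCGTG).
Txnip, chr3:96557707-96558006, plus strand: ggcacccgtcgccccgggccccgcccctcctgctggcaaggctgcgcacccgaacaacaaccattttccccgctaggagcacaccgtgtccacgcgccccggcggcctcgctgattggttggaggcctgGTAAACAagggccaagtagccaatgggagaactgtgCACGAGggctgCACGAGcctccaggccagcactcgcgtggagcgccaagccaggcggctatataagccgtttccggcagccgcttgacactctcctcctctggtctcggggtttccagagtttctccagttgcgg
Irs2, chr8:11008880-11009179, minus strand: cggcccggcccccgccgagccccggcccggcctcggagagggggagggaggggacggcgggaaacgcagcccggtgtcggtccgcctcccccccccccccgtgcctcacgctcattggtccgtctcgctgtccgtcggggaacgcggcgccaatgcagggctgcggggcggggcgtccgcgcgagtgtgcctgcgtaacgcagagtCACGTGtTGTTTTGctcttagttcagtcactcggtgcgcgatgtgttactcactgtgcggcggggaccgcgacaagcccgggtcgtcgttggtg
Sesn1, chr10:41810324-41810623, plus strand: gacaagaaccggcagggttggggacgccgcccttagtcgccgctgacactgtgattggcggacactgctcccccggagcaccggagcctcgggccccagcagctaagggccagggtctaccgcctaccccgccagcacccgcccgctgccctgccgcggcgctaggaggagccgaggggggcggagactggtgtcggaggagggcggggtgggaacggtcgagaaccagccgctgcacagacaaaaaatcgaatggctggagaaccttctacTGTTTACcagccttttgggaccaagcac

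The Txnip window holds CACGAG at bases -85 to -80 and again at -74 to -69 from the start, so 5 bases lie between both E boxes, and a forkhead core at -121 to -115. Irs2 has CACGTG at -44 to -39 and TGTTTTG at -37 to -31, and Sesn1 has TGTTTAC at 23 to 29 after its first annotated start. Of 32851 windows of the same length, 3.65% hold a forkhead core, 6.28% an insulin response element core and 13.04% a carbohydrate response E box, while 4 windows (0.0122%) hold a pair of such boxes with that spacing. No 2 of these motifs overlapped in the windows shown. RefSeq windows were found for 9 of the 10 genes, 13 in all. In the others, Irs1 held TGTTTTG at -111 to -105 and at -32 to -26 and CACGTG at -115 to -110, which overlaps the first of these. Foxo3 held CTCGTG at 2 to 7, and the windows of Igf1r, Akt2, Pik3ip1 and Foxo1 held none of the letters. A match is a description of the sequence and not a measured site.

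Total counts ran from 14814409 to 22600405 per library over the 11 libraries used. The labels carry a check in Tet2, which stood at 91.2, 128 and 45.1 CPM (counts scaled to library size with TMM factors, on the usual CPM scale) in WT, 19.0, 18.5 and 19.3 in Tet2het, 131 and 107 in Akita and 66.5, 108 and 34.2 in the double mutant. The double mutant thus lay above Tet2het although both carry the same Tet2 label, and directions below are between libraries with these labels. No value of Ins2 was used here. Libraries numbered 3, present in every group but Akita, differed from the rest: mitochondrial genes took 3.43%, 4.46% and 9.76% of their counts against 1.36% to 1.94% in the 8 others. Results are given without them where that moves a value or a call. The stem and progenitor markers Cd34 and Kit were at 31.9 to 247 and 76.1 to 132 CPM. Markers of maturing neutrophils were far higher (summed 2048 to 69950 CPM over 10 genes), so the fraction also held RNA of maturing cells. In bulk RNA, fewer cells of a type and less RNA per cell cannot be told apart.

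Per length of exon, WT levels differed widely among the 10 genes. On the scale of CPM per kilobase of annotated exon, Txnip was at 162 ± 53.9 (SD, n = 3). Akt2 stood at 18.9 ± 0.149, Foxo3 at 15.6 ± 1.71, Irs2 at 14.6 ± 5.12, Pik3ip1 at 13.6 ± 7.84 and Sesn1 at 12.8 ± 2.48. Below these came Foxo1 at 8.32 ± 5.46, Igf1r at 6.87 ± 1.71 and Insr at 3.05 ± 0.780, and Irs1 was barely detected at 0.0422 ± 0.0261. In this order, neighbours from Foxo3 down to Igf1r differed by less than the larger of their SDs, while Akt2, Txnip, Insr and Irs1 each stood further than that from the next gene. Irs2 was thus the adaptor of the pair with more than trace levels, and Irs1 had 2 to 22 counts per library. For 6 of the 10 genes (Insr, Irs1, Irs2, Pik3ip1, Foxo1 and Txnip) an annotated gene lies on the other strand of the same span. Whether counting used strand is not given in the sources used here, so those counts may include reads of that partner.

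**Figure D1:**
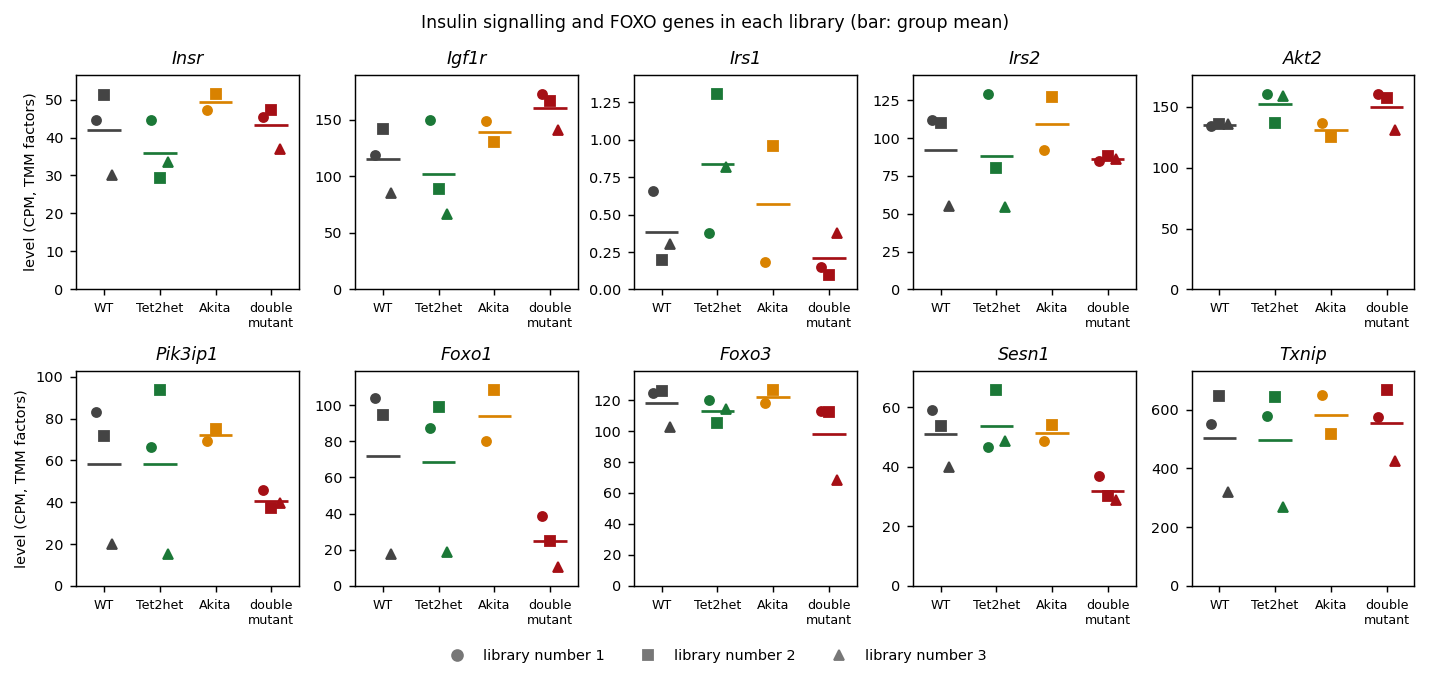
Levels of the 10 genes (CPM, linear axis from 0) in each of the 11 libraries, grouped by genotype; point shape gives the library number and the bar is the group mean. Sesn1 in the double mutant lies below every other library, and Foxo1 and Pik3ip1 are low in number 3 of WT and Tet2het.

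Akita against WT asks for the effect of the Akita allele alone. None of the 10 genes passed edgeR's quasi-likelihood test with Benjamini-Hochberg adjustment over all genes (smallest adjusted p = 1), and neither did any other gene tested (0.0% called). The count at an unadjusted p under 0.05 was 0 of 10 members, against 67 of 15630 genes (0.429%), and DESeq2 and edgeR with a replicate block called 0 genes too. Of the 10 log2 differences, 9 lay above 0, with a median of 0.24 against -0.01 over all genes. Without the libraries numbered 3, of which Akita has none, 3 lay above 0 and the median was -0.04, so the upward lean goes with WT replicate 3. With that library alone left out the median was -0.05.

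Txnip (ENSMUSG00000038393.14; chromosome 3, 96557957 to 96561883, plus strand), the gene asked for as a trace of high glucose, was at 551, 645 and 318 CPM in WT and 650 and 516 CPM in Akita. Akita replicate 2 lay inside the WT range and replicate 1 just above its highest value, so the groups overlapped. Its log2 difference was 0.21 (SE 0.41, 95% interval -0.70 to 1.12, adjusted p = 1), and -0.04 (SE 0.17) without the libraries numbered 3. The first interval holds a 2-fold rise. The intervals without the libraries numbered 3 (-0.43 to 0.35) and with the library number as a block (-0.49 to 0.45) do not. Arrdc4, a relative of Txnip that MondoA also drives, was at 18.3, 13.2 and 9.74 CPM in WT and 11.2 and 15.8 CPM in Akita, with a log2 difference of -0.03 (SE 0.36). The Akita values of Arrdc4 lay inside the WT range.

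The genes of the pathway's start stood alike. Irs2 (ENSMUSG00000038894.7; chromosome 8, 10984681 to 11008458, minus strand) was at 112, 110 and 55.1 CPM in WT and 91.8 and 127 CPM in Akita. Its log2 difference was 0.25 (SE 0.39, 95% interval -0.62 to 1.11), and -0.02 (SE 0.23) without the libraries numbered 3. Insr (ENSMUSG00000005534.10; chromosome 8, 3122061 to 3279617, minus strand), the insulin receptor, was at 44.6, 51.1 and 30.2 CPM in WT and 47.3 and 51.4 CPM in Akita. Groups overlapped for both genes, and for Insr the log2 difference was 0.23 (SE 0.27, 95% interval -0.37 to 0.84). Igf1r (ENSMUSG00000005533.10; chromosome 7, 67952827 to 68233668, plus strand), the IGF1 receptor, was at 119, 142 and 85.1 CPM in WT and 149 and 131 CPM in Akita (log2 difference 0.28, SE 0.34). For Insr and Igf1r the log2 differences were 0.05 (SE 0.19) and 0.10 (SE 0.23) without the libraries numbered 3. The narrowest interval in the fit of all libraries was that of Akt2 (ENSMUSG00000004056.15; chromosome 7, 27591552 to 27640826, plus strand), the AKT kinase that dominates insulin action in other tissues. It was at 134, 136 and 136 CPM in WT and 136 and 125 CPM in Akita (log2 difference -0.05, 95% interval -0.46 to 0.37; -0.04 without the libraries numbered 3).

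The FOXO genes and their targets showed no more. Foxo3 (ENSMUSG00000048756.11; chromosome 10, 42181841 to 42276755, minus strand) was at 125, 126 and 103 CPM in WT and 118 and 126 CPM in Akita (log2 difference 0.05, SE 0.24; -0.04, SE 0.12, without the libraries numbered 3). Sesn1, which encodes a stress sensor that restrains mTORC1, had a log2 difference of 0.02 (SE 0.24, 95% interval -0.52 to 0.56), and -0.13 (SE 0.18) without those libraries. Foxo1 and Pik3ip1 had wide intervals, -1.44 to 2.21 and -1.21 to 1.82. The fit shares 1 spread per gene over all groups, and replicate 3 of WT and of Tet2het lay far below replicates 1 and 2 in both genes. Without the libraries numbered 3 their log2 differences were -0.07 (SE 0.22) and -0.10 (SE 0.19). Irs1 (ENSMUSG00000055980.2; chromosome 1, 82233101 to 82291416, minus strand) was counted 13, 4 and 5 times in the WT libraries and 3 and 20 times in those of Akita, too few for a comparison of levels.

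**Figure D2:**
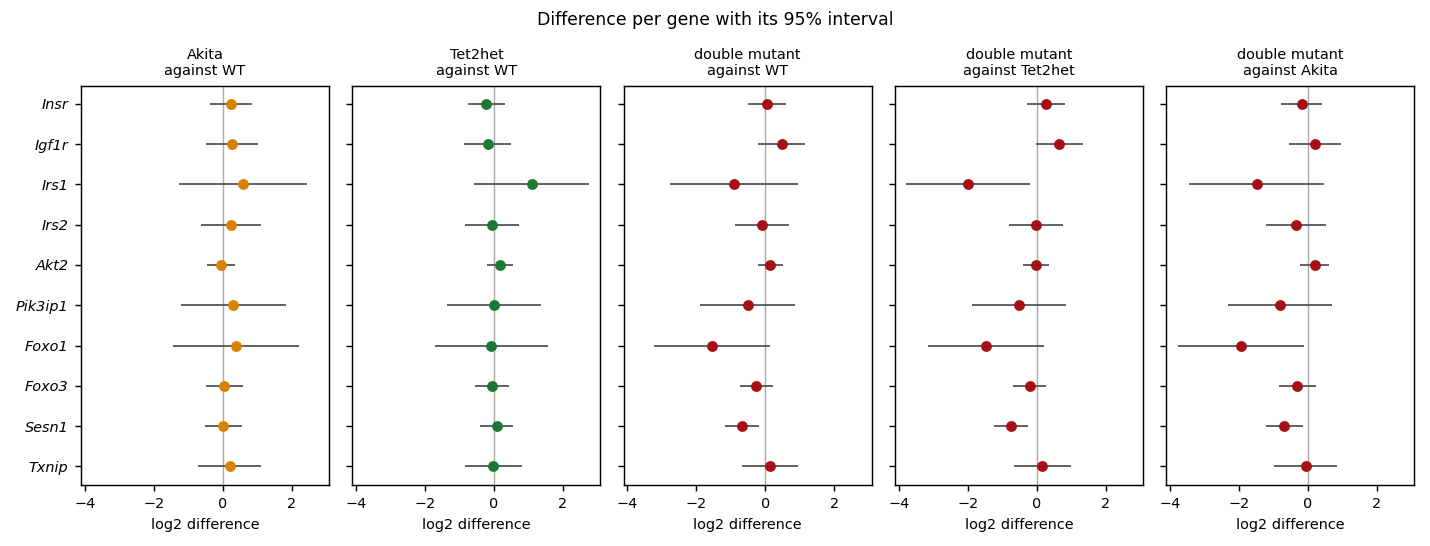
Log2 difference of each gene (horizontal axis) in 5 comparisons, with its 95% interval from the edgeR fit. In Akita against WT and Tet2het against WT every interval crosses 0, and in the 3 comparisons of the double mutant the intervals of Sesn1 lie below 0. Those of Irs1, a gene of few counts, against Tet2het and of Foxo1 against Akita lie below 0 as well.

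Tet2het against WT asks for the Tet2 label alone. No member was called (0.0256% of all genes were), 3 log2 differences lay above 0 and 7 below, and the median was -0.04 against 0.03 over all genes (also -0.04 without the libraries numbered 3). Akt2 was the 1 member whose groups did not overlap, at 160, 137 and 159 CPM in Tet2het against 134 to 136 CPM in WT (log2 difference 0.17, SE 0.17, adjusted p = 0.9999). Such separation in the upward direction held for 2.07% of all genes. Txnip was at 579, 644 and 267 CPM in Tet2het, with a log2 difference of -0.02 (SE 0.37). Igf1r spread from 66.6 to 150 CPM in Tet2het and Irs2 from 54.6 to 129 CPM, so that both overlapped WT. In Foxo1 number 3 lay far below numbers 1 and 2 in both groups: 87.2, 99.0 and 18.9 CPM in Tet2het stood beside 104, 94.7 and 17.7 CPM in WT.

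Sesn1 was the member whose double mutant libraries lay apart from those of every other genotype, and Foxo1 and Pik3ip1 were called in some of the alternative fits. Against WT no member was called in the fit of all libraries (0.0448% of genes were), 6 of 10 log2 differences lay below 0, and the median was -0.18 against -0.05 over all genes. Against Tet2het none was called either (0.262% of genes), with 7 below 0 and a median of -0.12 against -0.08. Against Akita none was called (0.0384%), with 8 below 0 and a median of -0.33 against 0.01. These 3 comparisons share the double mutant libraries, so their values are given side by side and not as repeats of each other. Against Akita 6 of 10 members (Insr, Irs2, Pik3ip1, Foxo1, Foxo3 and Sesn1) had every double mutant library below both Akita libraries, as 19.9% of all genes did. In the fit of all libraries the smallest adjusted p of a member was 0.338 against WT, 0.227 against Tet2het and 0.596 against Akita, each time that of Sesn1.

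Sesn1 (ENSMUSG00000038332.12; chromosome 10, 41809935 to 41908424, plus strand) was at 36.9, 30.2 and 28.8 CPM in the double mutant. It was at 59.0, 53.8 and 39.9 CPM in WT, 46.8, 65.7 and 48.7 CPM in Tet2het and 48.9 and 54.1 CPM in Akita. Every double mutant library thus lay below every library of the 3 other genotypes, whose ranges overlapped one another. The log2 difference was -0.67 (SE 0.22, 95% interval -1.16 to -0.19) against WT and -0.75 (SE 0.22, -1.24 to -0.26) against Tet2het. Against Akita it was -0.69 (SE 0.24, -1.22 to -0.15), and -0.62 (SE 0.19, adjusted p = 0.112) without the libraries numbered 3. Separation in the downward direction held for 8.57%, 6.68% and 19.9% of all genes in these comparisons. With the library number as a block the difference from Tet2het passed (-0.75, SE 0.17, adjusted p = 0.0469), as it did without the libraries numbered 3 (-0.75, SE 0.19, adjusted p = 0.0478). Against WT neither fit called it (adjusted p = 0.0870 and 0.0666).

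Foxo1 (ENSMUSG00000044167.6; chromosome 3, 52268336 to 52353221, plus strand) was at 38.6, 24.8 and 10.4 CPM in the double mutant, and at 104, 94.7 and 17.7 CPM in WT. Number 3 of WT and Tet2het lay as low as the double mutant, so the groups overlapped, while both Akita libraries (80.4 and 108 CPM) lay above all 3. Within library numbers 1 to 3 the double mutant stood at 37.2%, 26.2% and 58.7% of WT and at 44.3%, 25.1% and 55.0% of Tet2het. Members lower than WT within all 3 numbers were Foxo1, Foxo3 and Sesn1, a pattern that 25.7% of all genes shared. The log2 difference from WT was -1.55 (SE 0.75, adjusted p = 0.624) in the fit of all libraries. With the library number as a block Foxo1 fell (-1.36, SE 0.25, adjusted p = 0.0380), as it did without the libraries numbered 3 (-1.65, SE 0.23, adjusted p = 0.0142). Against Tet2het it fell in both of these fits as well, by 1.32 (SE 0.25, adjusted p = 0.0257) and 1.55 (SE 0.23, adjusted p = 0.00890) on the log2 scale. Against Akita it fell only without the libraries numbered 3 (-1.57, SE 0.23, adjusted p = 0.0184) and had adjusted p = 0.121 with the block. In the fit of all libraries the difference from Akita was -1.94 (SE 0.82, 95% interval -3.76 to -0.11, adjusted p = 0.724).

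Pik3ip1 (ENSMUSG00000034614.14; chromosome 11, 3330401 to 3342971, plus strand), which encodes a membrane protein that holds PI3-kinase in check, had its 3 double mutant libraries close together, at 45.8, 37.1 and 39.6 CPM. WT stood at 83.0, 71.7 and 20.1 CPM and Tet2het at 66.3, 93.5 and 15.1 CPM. The double mutant was thus below WT in numbers 1 and 2 (55.1% and 51.7%) and above it in number 3 (197%). No call was made with all libraries (log2 difference from WT -0.51, SE 0.61, adjusted p = 0.899) or with the block (adjusted p = 0.875). Without the libraries numbered 3 Pik3ip1 fell against WT (-0.90, SE 0.19, adjusted p = 0.0449) and Tet2het (-0.95, SE 0.19, adjusted p = 0.0246), and not against Akita (-0.80, adjusted p = 0.0649).

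With the block, 1 of 10 members was called against WT (1.63% of genes) and 2 against Tet2het (4.50%). Without the libraries numbered 3, 2 were called against WT (3.44%), 3 against Tet2het (7.71%) and 1 against Akita (2.89%). DESeq2 called none of the 10 in any of the 6 comparisons, although it called 2.61% of genes in the double mutant against WT. It gave Irs1 no adjusted p in the interaction, so Irs1 could not be called there.

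The 7 other genes gave no call in the double mutant in any of these fits. Txnip was at 575, 665 and 426 CPM, within the pooled range of WT and Akita but for the 665 CPM of replicate 2. Its log2 difference was 0.14 (SE 0.37, 95% interval -0.68 to 0.96) from WT and 0.05 (SE 0.17) without the libraries numbered 3. Igf1r leaned the other way from Foxo1, at 173, 167 and 141 CPM, with a log2 difference of 0.47 (SE 0.31) from WT and 0.65 (SE 0.31, adjusted p = 0.478) from Tet2het. It was higher than WT in all 3 library numbers (146%, 117% and 165%), as were 22.2% of all genes, and had adjusted p = 0.0773 against Tet2het with the block. Irs2 was nearly level across the double mutant, at 85.1, 87.9 and 86.1 CPM, with a log2 difference of -0.10 (SE 0.35) from WT. Foxo3 was at 113, 112 and 68.7 CPM (log2 difference -0.27, SE 0.22), and Insr at 45.5, 47.3 and 37.0 CPM (0.04, SE 0.24). Akt2 was at 160, 157 and 131 CPM (0.15, SE 0.17). Irs1 had 3, 2 and 6 counts.

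Whether the Akita allele acted differently with and without the Tet2 label was read from the interaction, which is the double mutant against Tet2het minus Akita against WT. No member was called, nor was any gene (0.0%). DESeq2 called 60 of 13788 genes (0.435%), no member among them. In the edgeR fit of all libraries 537 genes (3.44%) had an unadjusted p under 0.05, among them Sesn1. For Sesn1 the interaction was -0.77 (SE 0.32, adjusted p = 1) and for Foxo1 -1.86 (SE 1.099, adjusted p = 1). Without the libraries numbered 3 these were -0.62 (SE 0.26, adjusted p = 0.372) and -1.48 (SE 0.31, adjusted p = 0.102). For Txnip it was -0.05 (SE 0.55). The fall of Foxo1 and Sesn1 in the double mutant is thus not shown to differ from the Akita effect on the WT background.

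In the double mutant the log2 differences of most lymphoid, dendritic and erythroid markers from WT lay below 0. In the fit of all libraries no gene of the marker lists was called against WT or Akita. Against Tet2het 5 B lineage genes were called, where 0.262% of all genes were. Over the B lineage markers (led by Cd79a and Cd79b), 10 of 10 had a log2 difference below 0 in the double mutant against WT (median -2.46). Their summed level was 173 to 238 CPM in WT, 201 to 401 in Tet2het, 202 to 219 in Akita and 58.3 to 77.8 in the double mutant. Over the T and NK cell markers (led by Il2rb and Nkg7) 8 of 10 lay below 0 (median -1.12), with summed levels of 175 to 565, 165 to 594, 477 to 478 and 193 to 311 CPM in the same order. Within the libraries numbered 3 the T and NK sum was higher in the double mutant (193 CPM) than in WT (175) and Tet2het (165). Nkg7 was at 96.7 CPM there, against 46.0 in WT and 19.2 in Tet2het. Beside Nkg7, only Cd3d (5.83 against 5.75 CPM) lay above WT, and only Klrb1c (12.36 against 11.45 CPM) above Tet2het. The other genes of the list were lower in the double mutant than in either. Dendritic markers were below 0 in 6 of 6 (median -1.78), at 158 to 200 CPM in the double mutant against 376 to 520 in WT. Erythroid markers were below 0 in 10 of 10 (median -1.09), with sums of 258 to 1723 CPM against 612.5 to 2909. In Tet2het the erythroid sums were 851 to 5089 CPM and in Akita 564 to 1773 CPM, so the double mutant overlapped every other group. Of these 4 lists only the dendritic one had a gene at 0 counts in some library (Cd209d). The maturing neutrophil markers went the other way, with 10 of 10 above 0 (median 2.13) and sums of 2048 to 23210 CPM in WT and 45600 to 69950 CPM in the double mutant. The part of these cell types in the lower Foxo1, Pik3ip1 and Sesn1 was not tested. Across the 11 libraries, which share genotypes, numbers and depth, log2 levels correlated with the log2 summed T and NK markers at r = 0.961 for Foxo1, 0.949 for Pik3ip1 and 0.710 for Sesn1. Over the 8 libraries not numbered 3 these were 0.961, 0.989 and 0.985. The T and NK sum is led by Il2rb and Nkg7, so r describes the sum and not each gene of the list. With the B lineage sum r was 0.664, 0.395 and 0.929 over 11 libraries and 0.938, 0.971 and 0.951 over the 8. With the dendritic sum it was 0.63, 0.368 and 0.795, and 0.884, 0.935 and 0.911. Lists of other lineages also gave high values over the 8. The maturing neutrophil sum gave -0.946, -0.841 and -0.836 and the erythroid sum 0.734, 0.687 and 0.696. Over 11 libraries these were 0.202, 0.611 and -0.281, and -0.345, -0.536 and 0.165. For Txnip the T and NK value was 0.783 over 11 libraries and -0.179 over the 8.

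**Figure D3:**
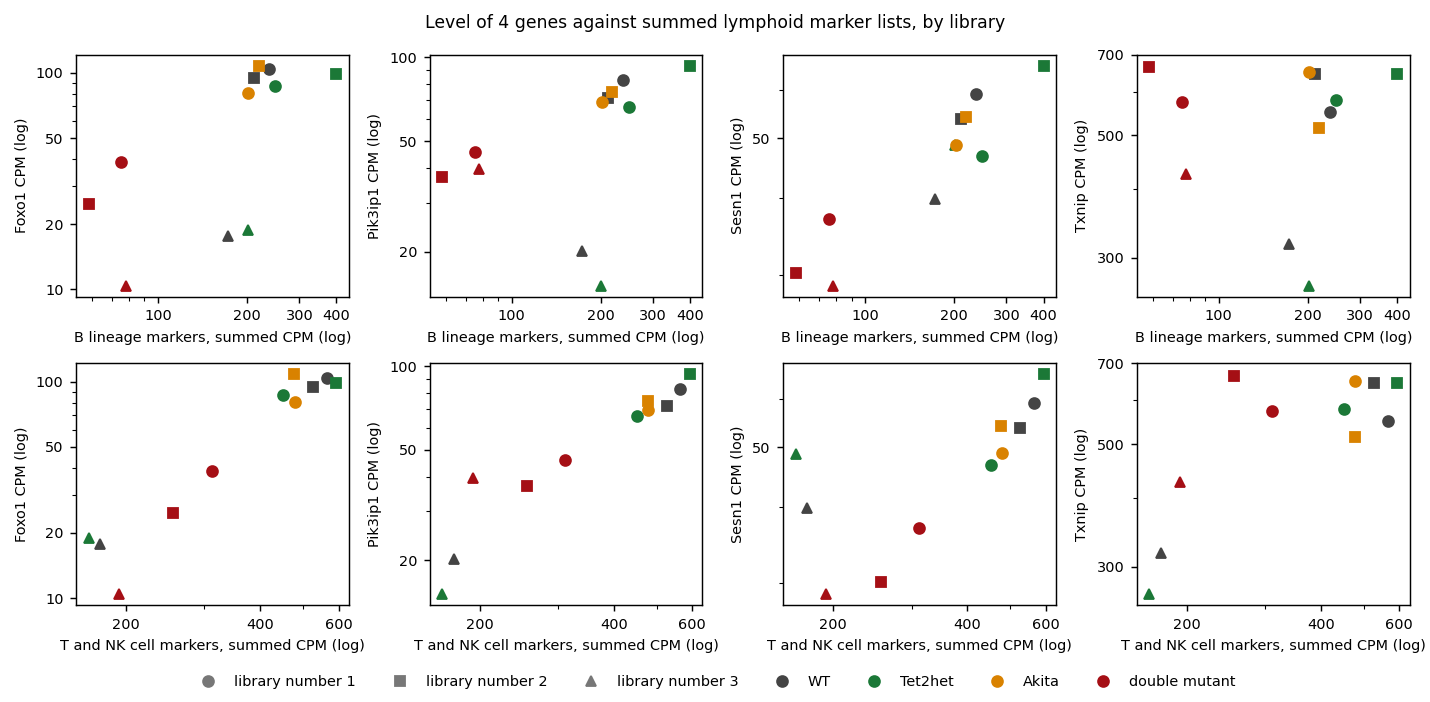
Levels of Foxo1, Pik3ip1, Sesn1 and Txnip (CPM, log axis) against the summed level of 10 B lineage markers (top row) and 10 T and NK cell markers (bottom row; CPM, log axis), 1 point per library, coloured by genotype and shaped by library number. Foxo1 and Pik3ip1 line up with the T and NK sum (r = 0.961 and 0.949 over 11 libraries). That sum is led by Il2rb and Nkg7, and not every gene of the list follows it: Klrb1c was at 7.66, 6.47 and 13.4 CPM in WT.

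The libraries numbered 3 had their own pattern in these genes. In 7 of the 10 (Insr, Igf1r, Irs2, Pik3ip1, Foxo1, Sesn1 and Txnip) number 3 lay below the mean of numbers 1 and 2 in all 3 groups that have one, which held for 31.6% of all genes. Foxo1 was lower there by -2.48, -2.29 and -1.56 (log2 level in number 3 minus the mean of 1 and 2) in WT, Tet2het and the double mutant. Pik3ip1 had differences of -1.93, -2.38 and -0.06, and Txnip of -0.91, -1.19 and -0.54. So Pik3ip1 was low in number 3 of WT and Tet2het and level in that of the double mutant. Akt2 was the steadiest gene, with a highest level 1.28 times its lowest over 11 libraries, against 10.4 times for Foxo1, 6.20 for Pik3ip1 and 2.49 for Txnip. In the same libraries the neutrophil primary granule markers summed to 1508 CPM in WT number 3 and 604 in Tet2het number 3, against 7830 to 11640 in numbers 1 and 2 of both groups. The erythroid markers summed to 2909 and 5089 CPM there, against 612.5 to 1420 in numbers 1 and 2. In number 3 of the double mutant the primary granule sum was 7281 CPM, against 12200 and 13580 in numbers 1 and 2. The erythroid sum there was 1723 CPM, against 856 and 258. The part of these markers in the low Txnip of the libraries numbered 3 was not tested. Txnip correlated with the primary granule sum at r = 0.943 and with the erythroid sum at -0.899 over 11 libraries, and at 0.433 and -0.841 over the 8 not numbered 3. Other lists gave high values too. The monocyte and macrophage sum gave 0.912 and 0.651, and the maturing neutrophil sum 0.806 and 0.585.

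The rest of the pathway was read from 6 lists of 95 genes, of which 89 passed the low count filter. None was called in any of the 6 comparisons in the fit of all libraries. In Akita against WT 60 of 89 log2 differences lay above 0, and without the libraries numbered 3 this was 44 of 88. Among the genes of PI3-kinase and its opponents the median was 0.19 (15 genes; 0.01 without the libraries numbered 3), and among FOXO factors and targets it was 0.17 (28 genes; -0.01 without them). For ligands, receptors and binding proteins it was -0.30 (6 genes, 4 of them below 0; -0.09 over 5 genes without them). For AKT, mTOR and relay kinases it was 0.01 (19 genes; 0.03 without them), for adaptors 0.11 (12 genes; -0.02 without them) and for glucose sensing by MondoA and ChREBP 0.23 (9 genes; -0.05 without the libraries numbered 3). The PI3-kinase subunits Pik3cd and Pik3r1 had log2 differences from WT of -0.05 and 0.29 in Akita, and of 0.07 and -0.16 in the double mutant. In Akita and the double mutant, in that order, the lipid phosphatase gene Inpp5d had log2 differences of 0.19 and -0.21, Akt1 had 0.05 and 0.29, and the receptor gene Igf2r, whose product clears IGF2, had 0.27 and -0.16. Igf1, the ligand, was at 7.99 CPM in WT replicate 3 and at 0.150 to 1.14 CPM in the 10 other libraries. Mlxipl, which encodes ChREBP, had 0 to 13 counts per library and was not tested. On raw library totals, without the TMM factors used elsewhere, 3 counts correspond to 0.133 to 0.203 CPM. Mlxip, which encodes MondoA, was at 84.1 to 244 CPM.

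**Figure D4:**
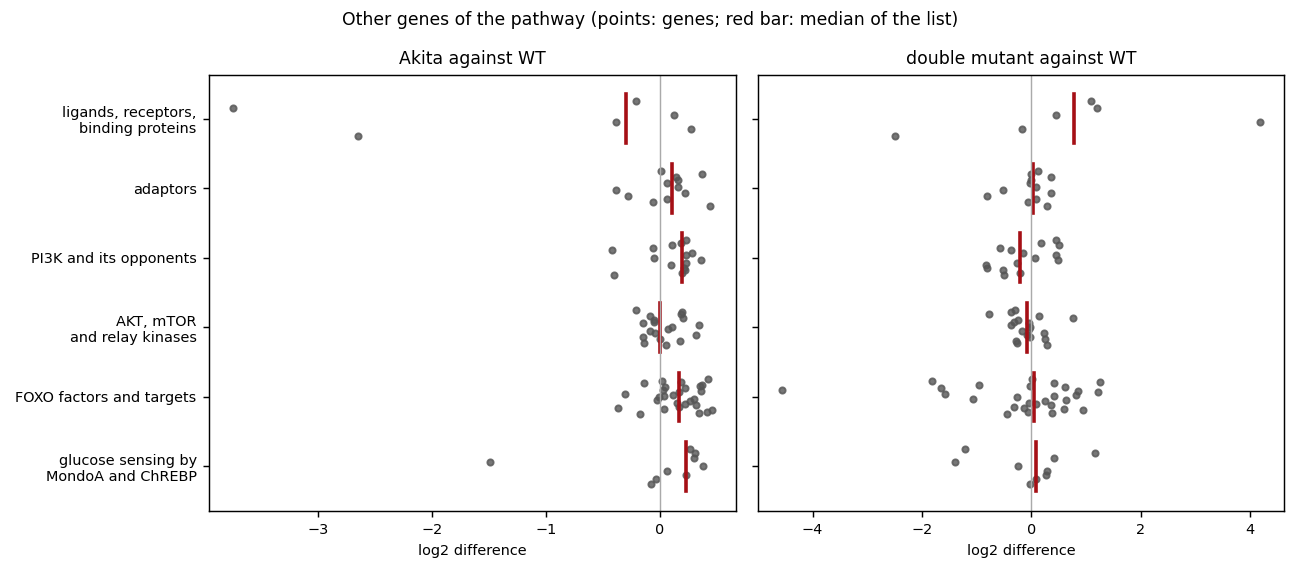
Log2 differences (horizontal axis) of the 89 tested genes of 6 pathway lists in Akita against WT and in the double mutant against WT; points are genes and the red bar is the list's median. FOXO factors and targets spread widely to both sides of 0 in the double mutant, and none of the points passed the test over all genes.

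Of the 28 FOXO factors and targets, 15 lay above and 13 below 0 in the double mutant against WT. Their median was 0.05 in the fit of all libraries, 0.37 with the block and 0.005 without the libraries numbered 3. Sesn3, a sestrin like Sesn1, was at 27.0, 19.9 and 11.5 CPM against 45.0, 52.4 and 15.2 CPM in WT. Il7r, the interleukin 7 receptor of lymphoid progenitors, was at 8.07, 5.07 and 12.3 CPM against 29.7, 16.8 and 29.4 CPM. Klf2, a transcription factor that FOXO1 raises in lymphocytes, went the other way, with 275, 356 and 248 CPM against 169, 160 and 47.5 CPM. Bcl6, a transcriptional repressor, was at 68.8, 94.3 and 21.3 CPM against 39.4, 47.7 and 8.77 CPM. Trib1, a pseudokinase of myeloid cells, was at 191, 284 and 452 CPM against 143, 158 and 85.7 CPM. The groups of Il7r, Klf2 and Trib1 did not overlap, as held for 9.55% of all genes upward and 8.57% downward, and those of Sesn3 and Bcl6 did. Without the libraries numbered 3, Sesn3 (-1.06, adjusted p = 0.0213), S1pr1 (-1.96, adjusted p = 0.0329), Fbxo32 (-1.16, adjusted p = 0.0337) and Rag1 (-3.94, adjusted p = 0.0441) fell against WT, and Klf2 (0.94, adjusted p = 0.0243), Sod2 (0.64, adjusted p = 0.0425) and Bcl6 (0.91, adjusted p = 0.0462) rose. Rag1, the recombinase gene of lymphoid precursors, is also among the B lineage markers. Outside this list the fit gave lower Tbc1d4 (-1.23, adjusted p = 0.0130), a substrate of AKT in glucose uptake, Phlpp1 (-1.01, adjusted p = 0.0425), a phosphatase of AKT, and Thbs1 (-1.50, adjusted p = 0.0419). That is 10 of 88 genes, 3 higher and 7 lower, where 3.44% of all genes were called. By DESeq2 on all libraries, Rag1, Trib2 and Il7r were lower and Trib1 higher (4 of 89; 2.61% of all genes), and with the block Rag1 was lower and Bcl6 and Igfbp3 higher (3 of 89; 1.63% of all genes). Igfbp3 rests on 0 to 33 counts per library.

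The cell cycle brakes Ccng2 and Cdkn1b, both FOXO targets, and Foxo4 gave no call. Their log2 differences in the double mutant against WT were 0.35, -0.03 and -0.26. Among the glucose-linked genes, Arrdc4 was at 12.6, 13.5 and 17.7 CPM in the double mutant (log2 difference from WT 0.09, SE 0.32) and Mlxip had -0.25. The glucose transporter gene Slc2a1 was at 93.6, 106 and 44.3 CPM against 63.9, 99.6 and 19.2 CPM in WT (0.42, SE 0.68). Slc2a3, the transporter gene of neutrophils and other blood cells, was at 382, 523 and 412 CPM against 221, 268 and 94.9 CPM (1.17, SE 0.51, adjusted p = 0.537). Its groups did not overlap, in the direction shared by 9.55% of all genes. Txnip and Arrdc4, the pair most tied to glucose, thus had log2 differences of 0.14 and 0.09 beside 1.17 for Slc2a3.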

How the data were processed

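The authors deposited 1 table of raw read counts per gene, unnormalised per the file headers and the whole-number values. The submitters' processing notes name bcl2fastq, Trimmomatic 0.32, TopHat2 2.1.1 and GRCm38; which program, annotation and strand setting made the counts is not given in the sources used here. Columns were matched to 11 of 12 labelled samples; sample 4 of the double mutant was not analysed here, and 1 column with no matching label was left unused. Names came from GENCODE (GRCm38), where 30875 of 31060 identifiers matched after dropping the version.

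One model of all 4 genotypes was fitted to these deposited counts in R 4.3.3 with edgeR 4.0.16 (filterByExpr, TMM, estimateDisp, robust glmQLFit, glmQLFTest), and 6 comparisons were read from it at a Benjamini-Hochberg adjusted p under 0.05 over 15630 genes. The model was also run on simulated counts that held no shared shift of the libraries numbered 3. That run cannot show how the model handles such a shift. Each SE is the absolute log2 difference divided by the square root of F, and 95% intervals use the total degrees of freedom. Log2 levels add a prior count of 2. Members, pathway and marker lists, the names always given and the alternatives were chosen with earlier results of these data known. List genes called in the fit of all libraries were to be named too; there were none, so Trib2, S1pr1, Fbxo32, Sod2, Rag1, Tbc1d4, Phlpp1, Thbs1 and Igfbp3 are named, after their values were seen, for calls in an alternative. The values of 1 listed gene are not reported here. As alternatives, the normalisation was changed to RLE or upper quartile, the test to DESeq2 1.42.0, the low count filter was dropped, a replicate block was added, and single libraries or all those numbered 3 were left out.

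The numbers of replicates are the labels' own, with no statement of what they stand for. Same-numbered libraries of WT, Tet2het and the double mutant deviated together from their group means (r = 0.318 to 0.791, over the 0.1 set for pairing), whereas those of Akita gave -0.351 to 0.264 with the other groups. Deviations from a group mean cancel out within the group, so a shared shift of number 3 also moves numbers 1 and 2 together. These r therefore cannot tell whether numbers 1 and 2 are paired. Libraries of 1 group always differed beyond counting noise, with a chi-square per gene of at least 17.3.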

Additional observations from a re-analysis of the deposited data

How the results depend on the processing

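In the fit of all libraries none of the 10 genes was called, so no call could be lost or reversed. Of 1020 values of the 10 genes under 17 alternatives, 1011 stayed without a call and 9 gained one. The 9 are those of Foxo1, Pik3ip1 and Sesn1 in the double mutant, with the replicate block (3) or without the libraries numbered 3 (6), as given above. The block changed no other call of a member. Medians of the 10 genes moved by less than 0.317, the pooled SD between libraries of a group in the median centred log2 level of the 10. In Akita against WT the median nevertheless turned from 0.24 to -0.05 without WT replicate 3 and -0.04 without the libraries numbered 3. Medians without 1 library ran from -0.30 to 0.16 in Tet2het against WT, -0.05 to 0.40 in Akita against WT, -0.36 to -0.05 in the double mutant against WT, -0.24 to -0.01 against Tet2het, -0.44 to -0.18 against Akita and -0.43 to -0.06 in the interaction.

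Counts of all genes called depended on the fit, and the cause was not tested. For Tet2het against WT (4), the double mutant against WT (7), Tet2het (41) and Akita (6), and the interaction (0), the replicate block gave 8, 255, 703, 18 and 3, and leaving out the libraries numbered 3 gave 22, 519, 1163, 436 and 7. DESeq2 gave 45, 408, 538, 189 and 60. With no low count filter the last 4 were 52, 86, 20 and 3, and upper quartile factors gave 3 against Akita. Akita against WT had 0 genes in every alternative run. Without 1 library the counts ran from 1 to 7 for Tet2het against WT and from 1 to 49 for the double mutant against WT, where dropping Tet2het replicate 3 gave 49, its replicates 2 and 1 gave 11 and 4, double mutant replicates 1 and 3 gave 21 and 2, and each WT library gave 1. In Tet2het against WT each WT library left out gave 1, and Tet2het or double mutant replicate 3 left out gave 7. Against Tet2het they ran from 0 to 66: 0 without WT replicate 1 or 2 or either Akita library, 1 without Tet2het replicate 1 or 2, 3, 6 and 8 without double mutant replicates 2, 3 and 1, and 66 without Tet2het replicate 3. Against Akita they ran from 0 to 11: 0 without Akita replicate 1 or double mutant replicate 2, 1 when Akita replicate 2, double mutant replicate 3 or any WT library was dropped, and 11 when it was Tet2het replicate 3. In the interaction they stayed at 0.

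With 2 to 3 libraries a group, log2 differences of Foxo1, Pik3ip1 and Irs1 have the widest intervals. Leaving out 1 of the 2 Akita libraries assumes that the other varies like the remaining groups.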

Other observations

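For each of the 10 genes, the most alike log2 levels over the 11 libraries were sought among named genes, Gm and Rik symbols left out. The genes found are a description, since the libraries share genotypes, numbers and depth. For Foxo1 they were Sh2d2a (r = 0.994), Sesn3 (0.989) and Gramd3 (0.988), and over the 8 libraries not numbered 3 these values were 0.983, 0.969 and 0.979. Sh2d2a encodes an adaptor protein of T cells. For Pik3ip1 they were Sfn (0.988), Ptpn22 (0.98), a phosphatase gene of lymphocytes, and Satb1 (0.98), a chromatin organiser of thymocytes. For Sesn1 they were Shb (0.971), Tti2 (0.967) and Tubb2a (0.966). For Txnip they were Rnf114 (0.990), Acot9 (0.989) and Capza2 (0.987), which were 0.936, 0.897 and 0.798 over the 8 libraries.

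The receptors had other neighbours. Igf1r ran most like Zfhx3 (0.990), Cntrl (0.984) and Fry (0.982), and Insr most like Prrg4 (0.958), Dstyk (0.955) and Trip11 (0.951). Irs2 ran most like Kremen1 (0.944), Vamp1 (0.943) and Tbc1d30 (0.94), and Foxo3 most like Uhmk1 (0.979), Crbn (0.973) and Adnp (0.968). Akt2, the steadiest of the 10, had no gene above 0.837 (Tdg-ps) among those searched, followed by Opa3 (0.832) and Spidr (0.824). Irs1, with 2 to 22 counts per library, ran most like the globin gene Hba-a1 (0.876), Zfp69 (0.871) and Zfp511 (0.867).

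Among the 10 genes themselves, Foxo1 and Pik3ip1 correlated at r = 0.842 over 11 libraries and 0.958 over the 8 not numbered 3, and Foxo1 and Sesn1 at 0.803 and 0.945. Pik3ip1 and Txnip correlated at 0.844 over 11 libraries and -0.237 over the 8.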
